A study of Mus musculus with 12 samples.

Results

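Glutamate receptors and the proteins that travel with them were followed here in the dorsal lateral geniculate nucleus (dLGN), the thalamic relay between the retina and the visual cortex, at postnatal day 0, after loss of SOX2, an HMG-box transcription factor, or of NR2F1 (COUP-TFI), a nuclear receptor, from the thalamus. The question was which of these genes differ in level from controls in each mutant, and which differ between the mutants. The rows of the gene tables whose symbol is on a fixed list of 40 genes were taken, out of 24480 genes in all. The list holds 4 AMPA, 5 kainate and 7 NMDA receptor subunits, 1 delta receptor, 7 metabotropic receptors, 6 transmembrane AMPA receptor regulatory proteins (TARPs), 8 other AMPA receptor auxiliary or assembly proteins and 2 kainate receptor auxiliary proteins. The study compared 4 groups of 3 libraries, each library made from the dLGNs of 3 pooled animals of 1 genotype. *Sox2* mutants were Sox2flox/flox with Ror-alphaCre, and their controls were Sox2flox/flox or Sox2flox/+ animals without Cre. *Nr2f1* mutants were Nr2f1 flox/flox with Ror-alphaCre. The genotype label of the *Nr2f1* controls names the Cre allele and also states that Cre is absent. The study's methods describe these controls as Cre-negative littermates that were Nr2f1flox/flox or Nr2f1flox/+. Ror-alphaCre drives recombination in thalamic cells that use the *Rora* gene, so cells of the dissected tissue outside that lineage keep the floxed gene. Where controls lack Cre, the presence of Cre and the loss of the gene cannot be told apart.

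Glutamate opens the AMPA, kainate and NMDA receptors, which are channels built from several subunits, whereas the metabotropic receptors act through G proteins. AMPA receptors carry the fast current of the retinogeniculate synapse, NMDA receptors admit calcium and are needed for its refinement, and the subunits that make up a receptor set its conductance, kinetics and calcium permeability. Auxiliary proteins such as the TARPs, the cornichons, the CKAMP (Shisa) family, GSG1L and the NETO proteins bind the channels and change their trafficking and gating.

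The tables held 39293465 to 50095344 reads assigned to genes per library. The deleted genes were lower in their own mutants. *Sox2* measured 361, 363 and 382 CPM in the controls and 116, 150.4 and 152 CPM in the mutants of the *Sox2* line. *Nr2f1* measured 311, 370.4 and 380.1 CPM in the controls and 105, 151 and 101 CPM in the mutants of the *Nr2f1* line. *Sox2* was also called lower in *Nr2f1* mutants, at 351, 343 and 374 CPM in the controls and 238, 279 and 212 CPM in the mutants (log2 fold change -0.55 ± 0.09, edgeR FDR 0.00635, where ± is the standard error), whereas *Nr2f1* was not called in *Sox2* mutants (-0.39 (edgeR FDR 0.0559)). CPM is the usual scaling of a gene's count to the library total, here after TMM scaling within a line. Values are given throughout in the order CTRL_1, CTRL_2, CTRL_3 and MUT_1, MUT_3, MUT_4 for the *Sox2* line, and CTRL_B, CTRL_D, CTRL_E and MUT_A, MUT_B, MUT_C for the *Nr2f1* line. Library MUT_A stood apart in that its 4 male-specific genes summed to 0 CPM, against 43.6 to 97.4 CPM in its controls and at most 52.1 CPM in the other mutants. *Xist*, the RNA of the inactive X chromosome, measured 0.189 CPM in CTRL_2 and 0.463 CPM in MUT_1 of the *Sox2* line and 0.283 CPM in CTRL_E of the *Nr2f1* line, against 293 to 1150 CPM in the other libraries. Calls lost without any of these 4 libraries are given beside each gene. The thalamic glutamatergic markers were present in every group, with a summed level of 2351 to 2969 CPM in the controls and 2233 to 2310 CPM in the mutants of the *Sox2* line, and 5 of the 10 were lower and 2 higher in *Sox2* mutants. Among the other lists of the *Sox2* line, 7 of 9 astrocyte and radial glia markers were higher (summed level 2338 to 2819 CPM in the controls and 3526 to 4056 CPM in the mutants), as were 7 of 8 microglia markers (130.5 to 144 CPM in the controls and 269 to 311 CPM in the mutants). The 7 GABAergic neuron markers summed to 87.02 to 139 CPM in the controls and 161 to 230.5 CPM in the mutants, and for 6 of them all mutants lay above all controls. Of these 7, edgeR's quasi-likelihood test called 0, 6 had an unadjusted p below 0.05 and DESeq2 called 4. In *Nr2f1* mutants edgeR's quasi-likelihood test called 1 of 10 thalamic glutamatergic markers lower and 1 higher. Of these 10, 8 had an unadjusted p below 0.05 and DESeq2 called 6. All mutants lay below all controls for 3 of them and above for 5. Of 9 astrocyte and radial glia markers 1 was called higher, 6 had an unadjusted p below 0.05 and DESeq2 called 3. The glial list had a summed level of 1991 to 2056 CPM in the controls and 2288 to 2484 CPM in the mutants. Microglia markers of that line summed to 107 to 122 CPM in the controls and 132 to 163 CPM in the mutants, where edgeR's quasi-likelihood test called 0 of 8, 5 had an unadjusted p below 0.05 and DESeq2 called 3. In the same line 4 of 7 GABAergic, 5 of 5 endothelial and 4 of 4 fibroblast markers had an unadjusted p below 0.05. The quasi-likelihood test called none of them, and DESeq2 called 2 endothelial markers only. GABAergic markers summed to 122 to 130 CPM in the controls and 119 to 229.5 CPM in the mutants. Of 10 markers of neurons of any kind, the quasi-likelihood test called 2 in *Sox2* and 0 in *Nr2f1* mutants, and DESeq2 called 2 in each. Over all genes, the quasi-likelihood test called 8.08% in *Sox2* and 2.54% in *Nr2f1* mutants, and 37.9% and 28.6% had no overlap of mutants and controls. Over the alternatives, DESeq2 among them, at most 3095 and 1154 genes were called. The share of all genes with an unadjusted p below 0.05 or called by DESeq2 is not given. Counts by these criteria, here and below, therefore cannot be set against a background. The part of these shifts in the receptor values was not tested. In a bulk sample, fewer cells of a type and less RNA per cell cannot be told apart.

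A gene was called when its false discovery rate (FDR, Benjamini-Hochberg over all genes tested) was below 0.01 in edgeR's quasi-likelihood test of mutants against controls of the same line. In *Sox2* mutants 17 of the 39 members tested were called, 12 lower and 5 higher, where 8.08% of the 15602 genes tested were called, 4.19% lower and 3.90% higher. With upper quartile scaling the split was 11 lower and 8 higher. The split of all genes under that scaling is not given here, so a shift of the members cannot be told from a shift of all genes. In *Nr2f1* mutants 7 members were called, 4 lower and 3 higher, against 2.54% of 15600 genes, 1.32% lower and 1.22% higher. The 3 controls and 3 mutants did not overlap for 25 of 39 members in the *Sox2* line, beside 37.9% of all genes, and for 18 of 39 in the *Nr2f1* line, beside 28.6%. The median log2 fold change of the members was -0.145 in *Sox2* mutants and -0.053 in *Nr2f1* mutants, where all genes tested had medians of 0 and 0.014. Summed over the 40 members, the level was 3870 to 4457 CPM in the controls and 3288 to 3375 CPM in the mutants of the *Sox2* line, and 4383 to 4545 CPM in the controls and 3884 to 4398 CPM in the mutants of the *Nr2f1* line, so that the groups overlapped in the *Nr2f1* line only.

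**Figure D1:**
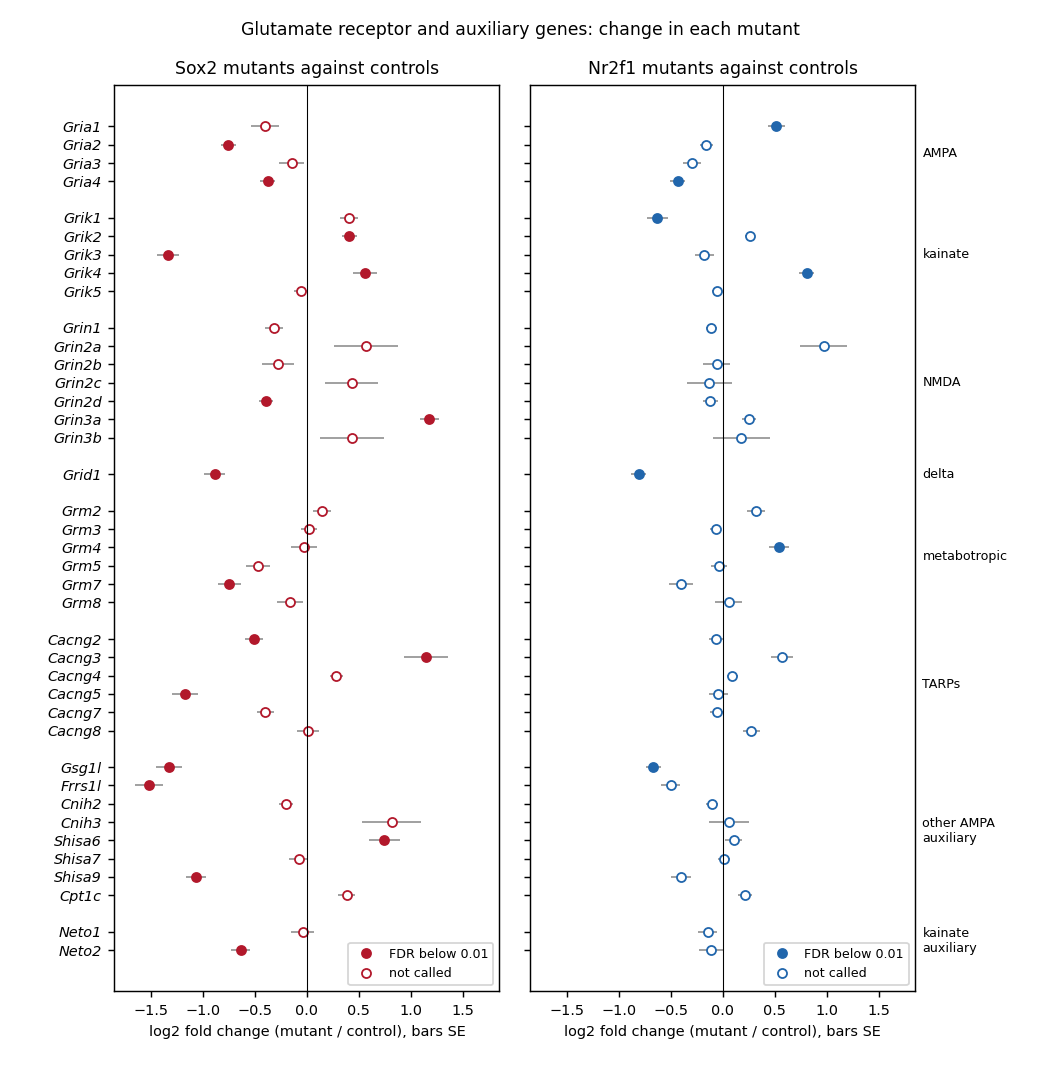
Log2 fold change of each of the 39 tested members (horizontal axis, mutant over control; bars are the standard error of the fit, 3 libraries a group) in *Sox2* mutants (left) and *Nr2f1* mutants (right), grouped by receptor class; filled circles have an FDR below 0.01. In *Sox2* mutants 17 circles are filled, 12 of them left of 0, and in *Nr2f1* mutants 7 are filled, 4 of them left of 0.

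Altogether 20 members were called in at least 1 line. *Gria4*, *Grid1* and *Gsg1l* fell and *Grik4* rose in both mutants, and no member was called in opposite directions. With the male-specific genes as a covariate *Grid1* was the only member called in both: *Gria4* lost both calls, *Grik4* its *Sox2* call (edgeR FDR 0.0258) and *Gsg1l* its *Nr2f1* call (edgeR FDR 0.0131). In the *Nr2f1* line this covariate mostly sets MUT_A apart, at a mean log2 CPM of -4.46 against 2.9 to 4.44 in the other libraries. A covariate also leaves less to estimate the spread from, so a lost call is not by itself an effect of sex. Over all genes tested in both lines, 1.05% were called in both in the same direction. Called in *Sox2* mutants alone were *Grik2*, *Grin3a*, *Cacng3* and *Shisa6*, which rose, and *Gria2*, *Grik3*, *Grin2d*, *Grm7*, *Cacng2*, *Cacng5*, *Frrs1l*, *Shisa9* and *Neto2*, which fell. Called in *Nr2f1* mutants alone were *Gria1* and *Grm4*, which rose, and *Grik1*, which fell. These sets are those of the fits reported here. With edgeR's quasi-likelihood test at the same FDR threshold, the study called more genes in each line. It lists *Frrs1l* as lower in *Nr2f1* mutants too, and counts *Frrs1l* and *Gsg1l* among the genes coregulated by SOX2 and NR2F1. A call in 1 line does not by itself show a difference between the mutants, so the change in *Sox2* mutants minus the change in *Nr2f1* mutants was tested for each gene. That difference was called for 7 of 39 members, 5 lower and 2 higher in *Sox2* mutants, against 1.44% of 15989 genes, 1.11% lower and 0.331% higher.

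**Figure D2:**
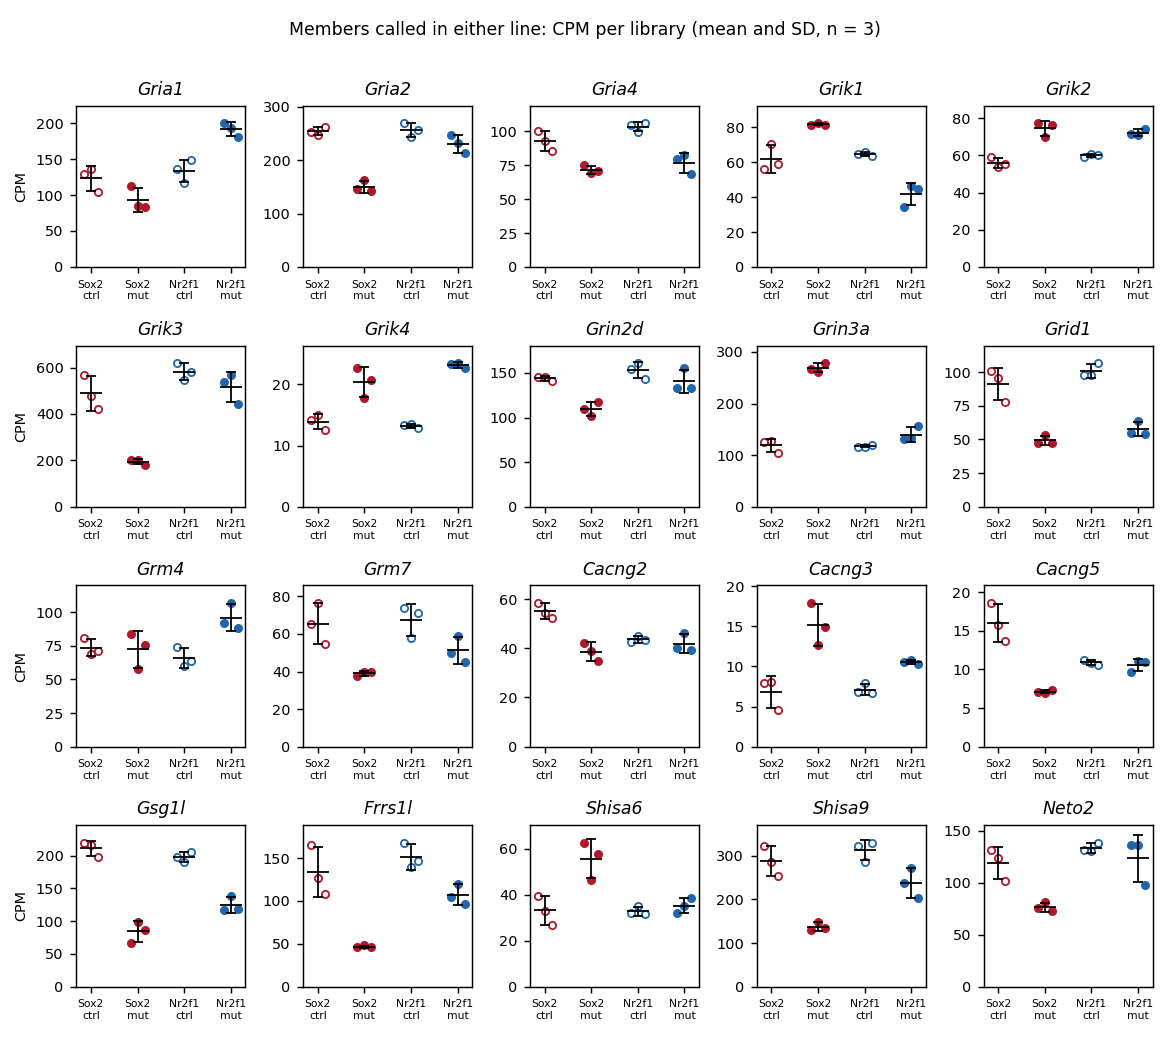
Level in CPM (vertical axis from 0, a separate scale for each gene) of the 20 members called in at least 1 line, in each of the 12 libraries; open circles are controls, filled circles mutants, and the black bars give the mean and SD of 3 libraries. The mutants of the *Sox2* line lie apart from their controls for *Gria2*, *Grik3*, *Grin3a*, *Gsg1l*, *Frrs1l* and *Shisa9*, and both mutants lie below their controls for *Grid1*.

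The order of the transcripts in the tissue can be read only after division by transcript length. In the 6 control libraries *Cnih2*, a cornichon, was the highest member, at 286 to 314 CPM per kb of transcript. *Grik5* followed at 73.6 to 82.8 and *Shisa9* at 65.8 to 85.4 CPM per kb, with overlapping ranges, and then *Grik3* at 47.1 to 69.1, *Grin1* at 45.6 to 58.2 and *Gsg1l* at 48.5 to 56.1 CPM per kb, whose ranges also overlapped. The highest of the other classes were *Gria2* among AMPA subunits (33.9 to 37.4 CPM per kb), *Grid1*, the delta receptor (13.5 to 18.7), *Grm5* among metabotropic receptors (25.3 to 40.4, overlapping *Grm3* at 29.5 to 32.6), *Cacng4* among TARPs (31.3 to 36.95) and *Neto2* among the kainate auxiliary proteins (18.1 to 24.7). Part of this order depends on the length used. Per kb of coding sequence *Cnih2* was again the highest, but *Shisa9*, *Gsg1l* and *Grik3* then stood above *Grik5* by the mean of the controls. The ranges were 153 to 225 for *Grik3* and 163 to 183 CPM per kb for *Grik5*, which overlap. The *Grik5* coding length is the median of 2 transcript models, 1666.5 bases, against 2668.5 to 2871 bases for the other kainate subunits. A longer coding length would lower the *Grik5* value, so this overlap depends on the models used. *Grm6*, the receptor known from retinal ON bipolar cells, had at most 8 counts in any library, did not pass the filter on low counts and was not tested.

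*Frrs1l* and *Grik3* are shown first by their promoters, since among auxiliary proteins and among receptor subunits, respectively, they fell furthest in *Sox2* mutants. The 250 bases before a transcript start of each gene, as RefSeq's promoter table gives it on build GRCm38.p6, are written 5′ to 3′ on the gene's own strand, and capitals mark the matches found by searching both strands for ACAAAG and ACAATG, which are SOX-type cores, and for AGGTCA and AAAGGTCA, a nuclear receptor site and a longer form that contains it. The *Frrs1l* window is chr4:56990392-56990641 on the minus strand and ends at the outer edge of the gene. The *Grik3* window is chr4:125490446-125490695 on the plus strand. The transcript start that follows it lies 437 bases inside the gene as RefSeq delimits it (from base 125490259), so the sequence before that outer edge is not in this window.
Frrs1l: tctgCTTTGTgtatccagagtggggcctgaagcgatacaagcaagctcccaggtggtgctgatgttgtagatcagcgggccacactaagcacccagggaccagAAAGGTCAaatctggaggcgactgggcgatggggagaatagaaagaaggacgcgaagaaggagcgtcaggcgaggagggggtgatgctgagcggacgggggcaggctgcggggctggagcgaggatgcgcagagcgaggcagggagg
Grik3: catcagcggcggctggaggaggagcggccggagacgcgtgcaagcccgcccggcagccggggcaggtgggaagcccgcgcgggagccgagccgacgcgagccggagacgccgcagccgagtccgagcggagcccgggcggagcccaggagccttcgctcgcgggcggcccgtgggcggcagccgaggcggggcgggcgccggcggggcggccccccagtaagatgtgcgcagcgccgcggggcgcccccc
The *Frrs1l* window held ACAAAG on the opposite strand, beginning 246 bases before the start, and AAAGGTCA on the gene's strand, beginning 147 bases before it. None of the 4 was found within the *Grik3* window, and the sequence further out was not searched. Of 32851 mouse promoters of the same length, 16.5% held ACAAAG, 10.7% ACAATG, 14.0% AGGTCA and 1.34% AAAGGTCA. Of the 26 members whose promoter was in the table, 2 held ACAAAG (*Frrs1l* and *Grm6*), 1 held ACAATG (*Grin1*), 4 held AGGTCA (*Cpt1c*, *Frrs1l*, *Cacng8* and *Grin2c*) and 1 held AAAGGTCA. A match is a description of the letters and not evidence of binding.

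Among the AMPA receptor subunits, *Gria2* and *Gria4* fell in *Sox2* mutants, while *Gria4* fell and *Gria1* rose in *Nr2f1* mutants. *Gria2* (chr3:80681450-80804227, minus strand, GRCm38) encodes GluA2, the subunit whose RNA-edited form makes the channel nearly impermeable to calcium. It measured 253, 247 and 262 CPM in the controls and 146, 163 and 142 CPM in the mutants of the *Sox2* line, with all mutants below all controls (log2 fold change -0.76 ± 0.07, edgeR FDR 0.000183), a level at 59.1% of control. Levels in the *Nr2f1* line were 269, 244 and 256 CPM in the controls and 246, 231 and 213 CPM in the mutants, with overlapping groups (log2 fold change -0.16 ± 0.06, edgeR FDR 0.164). The *Sox2* call held without each library in turn, at -0.82 to -0.72. *Gria1*, which encodes GluA1, measured 129, 136 and 104 CPM in the controls and 112, 84.2 and 82.99 CPM in the mutants of the *Sox2* line, overlapping (log2 fold change -0.40 ± 0.13, edgeR FDR 0.0602). Corresponding *Nr2f1* line levels were 136, 117 and 148 CPM in the controls and 200.0, 193 and 181 CPM in the mutants, all mutants above all controls (log2 fold change 0.52 ± 0.08, edgeR FDR 0.00540). The *Nr2f1* call was lost without CTRL_B, CTRL_D and MUT_A, one at a time, with changes of 0.43 to 0.60 over the 6 fits.

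*Gria4*, which encodes the fast-gating GluA4, measured 100.3, 93.3 and 85.6 CPM in the controls and 74.9, 68.97 and 71.2 CPM in the mutants of the *Sox2* line (log2 fold change -0.38 ± 0.07, edgeR FDR 0.00796). For the *Nr2f1* line the levels were 105, 99.9 and 106 CPM in the controls and 79.9, 82.3 and 68.3 CPM in the mutants (log2 fold change -0.43 ± 0.07, edgeR FDR 0.00703). All mutants lay below all controls in both lines. Both calls sit near the threshold: the *Sox2* call was lost without CTRL_1, CTRL_2, MUT_1, MUT_3 and MUT_4 (-0.42 to -0.32) and the *Nr2f1* call without CTRL_B, CTRL_D, CTRL_E and MUT_A (-0.48 to -0.36). *Gria3* (GluA3) was called in neither, at -0.14 (edgeR FDR 0.429) in *Sox2* and -0.29 (edgeR FDR 0.0740) in *Nr2f1* mutants.

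Expressed per kb of transcript, *Gria2* made up 42.4, 42.2 and 48.2% in the controls and 34.04, 41.3 and 37.7% in the mutants of the AMPA subunit transcripts of the *Sox2* line. The same share was 43.3, 42.8 and 40.6% in the controls and 37.9, 37.02 and 37.1% in the mutants of the *Nr2f1* line. Its share was lower in all 3 mutants than in all 3 controls of each line, by -6.58 and -4.88 percentage points (mutant minus control). The exact two-sided permutation p was 0.1 in each line, the smallest that 3 against 3 can give. The partners differed: in *Nr2f1* mutants the *Gria1* share was 29.2% ± 1.903 in the controls and 41.4% ± 0.503 in the mutants (SD, n = 3), and the *Gria4* share was 22.9% ± 0.566 in the controls and 16.8% ± 0.869 in the mutants. Within the *Sox2* line the *Gria1* shares overlapped, at 28.4% ± 2.796 in the controls and 30.9% ± 3.49 in the mutants, and the *Gria4* share was 21.7% ± 0.7999 in the controls and 24.1% ± 1.104 in the mutants. The *Gria4* share was thus above control in *Sox2* mutants although the *Gria4* level fell. The summed AMPA subunit level was 467 to 502 CPM in the controls and 311 to 351 CPM in the mutants of the *Sox2* line. It was 480.2 to 530.0 CPM in the controls and 478 to 542 CPM in the mutants of the *Nr2f1* line, where the groups overlapped.

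**Figure D3:**
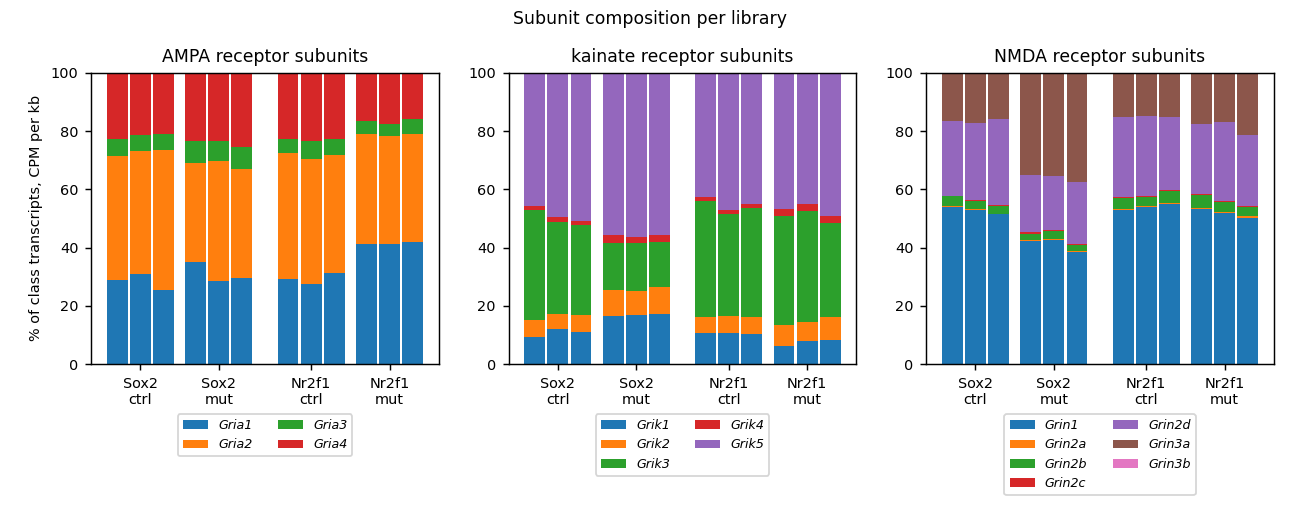
Share of each subunit in the transcripts of its receptor class (vertical axis, percent of CPM per kb of transcript) in each of the 12 libraries, 1 bar a library. The *Grik3* part of the kainate bars is smaller and the *Grin3a* part of the NMDA bars larger in the 3 *Sox2* mutants than in their controls, and the *Gria1* part of the AMPA bars is larger in the 3 *Nr2f1* mutants.

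Of the 6 TARPs, the AMPA receptor partners that include stargazin, 2 fell and 1 rose in *Sox2* mutants. In *Nr2f1* mutants edgeR's quasi-likelihood test called 0 of them, 2 had an unadjusted p below 0.05 (*Cacng3* and *Cacng8*), and DESeq2 called 1 (*Cacng3*). *Cacng5* (chr11:107874604-107915055, minus strand, GRCm38), a type II TARP (γ-5), measured 18.6, 15.7 and 13.7 CPM in the controls and 7.11, 6.89 and 7.33 CPM in the mutants of the *Sox2* line, all mutants below all controls (log2 fold change -1.17 ± 0.13, edgeR FDR 0.000378). Libraries of the *Nr2f1* line had 11.2, 10.9 and 10.6 CPM in the controls and 9.71, 11.1 and 11.01 CPM in the mutants, overlapping (log2 fold change -0.04 ± 0.09, edgeR FDR 0.831). The *Sox2* call held without each library, at -1.26 to -1.05.

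*Cacng2*, which encodes stargazin (γ-2), measured 58.5, 54.2 and 52.2 CPM in the controls and 42.2, 38.996 and 34.7 CPM in the mutants of the *Sox2* line (log2 fold change -0.51 ± 0.09, edgeR FDR 0.00394). Levels in the *Nr2f1* line were 42.3, 44.99 and 43.5 CPM in the controls and 40.1, 46.2 and 39.1 CPM in the mutants (log2 fold change -0.06 ± 0.07, edgeR FDR 0.669). The groups were apart in the first and overlapped in the second. The *Sox2* call was lost without CTRL_1, CTRL_2, MUT_3 and MUT_4 (-0.57 to -0.44). *Cacng3* (γ-3), a low-level transcript here, rose: it measured 7.94, 8.05 and 4.57 CPM in the controls and 17.9, 12.6 and 14.8 CPM in the mutants of the *Sox2* line (log2 fold change 1.14 ± 0.21, edgeR FDR 0.00590) and 6.76, 7.902 and 6.68 CPM in the controls and 10.6, 10.8 and 10.3 CPM in the mutants of the *Nr2f1* line, where the groups were also apart but the gene was not called (log2 fold change 0.57 ± 0.10, edgeR FDR 0.0118). Its *Sox2* call was lost without CTRL_1, CTRL_2, MUT_1 and MUT_4 (0.93 to 1.27). Markers of pallial and hippocampal neurons had a summed level of 26.8 to 49.5 CPM in the controls and 44.95 to 135 CPM in the mutants of the *Sox2* line. Of these 7 markers 1 was called higher and none was at 0 in any of the 6 libraries. The list summed to 135 CPM in MUT_1, 44.95 CPM in MUT_3 and 80.6 CPM in MUT_4, and *Cacng3* was likewise highest in MUT_1 and lowest in MUT_3 among the mutants. Of the other members called higher in *Sox2* mutants, *Grik2*, *Grik4* and *Shisa6* were also highest in MUT_1 and lowest in MUT_3, and *Grin3a* was not. The list summed to 27.9 to 37.7 CPM in the controls and 29.8 to 45.5 CPM in the mutants of the *Nr2f1* line. The part of these markers in the values of *Cacng3* and the other members was not tested. Of the TARPs called in neither mutant, *Cacng4*, *Cacng7* and *Cacng8*, the furthest from 0 was *Cacng7* in *Sox2* mutants, at -0.40 (edgeR FDR 0.0102).

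Among the other AMPA receptor auxiliary and assembly proteins, *Frrs1l*, *Gsg1l* and *Shisa9* fell and *Shisa6* rose in *Sox2* mutants, and *Gsg1l* fell in *Nr2f1* mutants. *Frrs1l* (chr4:56960136-56990391, minus strand, GRCm38) encodes an endoplasmic reticulum protein that helps to assemble AMPA receptors before their surface partners join. It measured 165, 127 and 108 CPM in the controls and 46.1, 47.9 and 45.9 CPM in the mutants of the *Sox2* line (log2 fold change -1.52 ± 0.13, edgeR FDR 0.000122), or 34.95% of control, the furthest change of any member. Corresponding *Nr2f1* line levels were 168, 139 and 147 CPM in the controls and 105, 120.2 and 96.3 CPM in the mutants, apart but not called (log2 fold change -0.50 ± 0.09, edgeR FDR 0.0117). The 3 *Sox2* mutants lay within a few CPM of each other while the controls ranged widely, and the call held without each library (-1.63 to -1.33). *Cpt1c*, which works with FRRS1L in that assembly step, was not called, at 0.38 (edgeR FDR 0.0130) in *Sox2* and 0.22 (edgeR FDR 0.0774) in *Nr2f1* mutants.

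*Gsg1l* (chr7:125878412-126082757, minus strand, GRCm38) encodes a claudin-family subunit that slows recovery of AMPA receptors from desensitization. It measured 220.2, 216 and 199 CPM in the controls and 66.8, 99.3 and 87.2 CPM in the mutants of the *Sox2* line (log2 fold change -1.33 ± 0.13, edgeR FDR 0.000181). For the *Nr2f1* line the levels were 198, 190.1 and 205 CPM in the controls and 117, 139 and 118 CPM in the mutants (log2 fold change -0.67 ± 0.07, edgeR FDR 0.000773). Mutants lay below controls in both lines, and both calls held without each library in turn, at -1.46 to -1.17 and -0.75 to -0.62, although the *Nr2f1* call was lost with the male-specific genes as a covariate. The fall was -1.33 against -0.67 on the log2 scale, a gap that did not pass the threshold (-0.65 ± 0.16, edgeR FDR 0.0405).

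*Shisa9*, which encodes CKAMP44, a protein that also slows recovery from desensitization and is known to act at geniculate synapses, measured 324, 286 and 255 CPM in the controls and 131, 149 and 134 CPM in the mutants of the *Sox2* line (log2 fold change -1.07 ± 0.10, edgeR FDR 0.000130). The *Nr2f1* line gave 322, 287 and 331 CPM in the controls and 237, 272 and 204 CPM in the mutants (log2 fold change -0.40 ± 0.10, edgeR FDR 0.0375). The mutants were below the controls in both lines, but only the *Sox2* change passed the threshold, and it held without each library (-1.14 to -0.98). *Shisa6*, another CKAMP gene, measured 39.6, 33.02 and 26.9 CPM in the controls and 62.8, 46.3 and 57.9 CPM in the mutants of the *Sox2* line (log2 fold change 0.75 ± 0.15, edgeR FDR 0.00775). Libraries of the *Nr2f1* line had 31.9, 34.9 and 31.5 CPM in the controls and 32.03, 35.3 and 38.5 CPM in the mutants (log2 fold change 0.11 ± 0.08, edgeR FDR 0.466). The *Sox2* mutants were above their controls, a call lost without CTRL_2, MUT_1 and MUT_4 (0.63 to 0.89), and the *Nr2f1* groups overlapped. *Cnih2*, *Cnih3* and *Shisa7* were called in neither mutant, and the furthest from 0 was *Cnih3*, at 0.81 (edgeR FDR 0.0709) in *Sox2* mutants, where 1 mutant library overlapped the controls.

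Kainate receptor subunits changed in both mutants: *Grik3* fell and *Grik2* and *Grik4* rose in *Sox2* mutants, and *Grik1* fell and *Grik4* rose in *Nr2f1* mutants. *Grik3* (chr4:125490259-125714173, plus strand, GRCm38) encodes GluK3, a low-affinity subunit. It measured 569, 476 and 422 CPM in the controls and 199.6, 201 and 182 CPM in the mutants of the *Sox2* line (log2 fold change -1.33 ± 0.11, edgeR FDR 7.77e-05), or 39.7% of control, with a wide gap between the groups. Levels in the *Nr2f1* line were 620.2, 546 and 581 CPM in the controls and 537, 566 and 444 CPM in the mutants, overlapping (log2 fold change -0.18 ± 0.09, edgeR FDR 0.254). The *Sox2* call held without each library (-1.42 to -1.21). *Grik1* (GluK1) measured 56.1, 70.7 and 58.7 CPM in the controls and 81.5, 82.4 and 81.4 CPM in the mutants of the *Sox2* line, all mutants above all controls but just short of the threshold (log2 fold change 0.40 ± 0.09, edgeR FDR 0.0124). For the *Nr2f1* line the levels were 64.6, 65.99 and 63.4 CPM in the controls and 34.3, 46.2 and 44.9 CPM in the mutants, all mutants below all controls (log2 fold change -0.63 ± 0.10, edgeR FDR 0.00635). The *Nr2f1* call was lost without CTRL_B, CTRL_D, CTRL_E and MUT_C (-0.71 to -0.50).

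*Grik4* encodes GluK4, a high-affinity subunit that needs a GluK1 to GluK3 partner to form a channel. It measured 14.1, 14.9 and 12.6 CPM in the controls and 22.6, 17.8 and 20.8 CPM in the mutants of the *Sox2* line (log2 fold change 0.55 ± 0.12, edgeR FDR 0.00993). Corresponding *Nr2f1* line levels were 13.4, 13.5 and 12.9 CPM in the controls and 23.3, 23.5 and 22.7 CPM in the mutants (log2 fold change 0.81 ± 0.07, edgeR FDR 0.000348). It was above control in every mutant library of both lines. The *Nr2f1* call held without each library (0.79 to 0.82), while the *Sox2* call was lost without CTRL_1, CTRL_2, CTRL_3, MUT_1 and MUT_4 (0.48 to 0.64). *Grik2* (GluK2) measured 59.2, 53.9 and 55.4 CPM in the controls and 77.5, 70.005 and 76.2 CPM in the mutants of the *Sox2* line (log2 fold change 0.41 ± 0.07, edgeR FDR 0.00430). The *Nr2f1* line gave 59.2, 60.5 and 60.5 CPM in the controls and 71.3, 70.9 and 74.2 CPM in the mutants (log2 fold change 0.26 ± 0.05, edgeR FDR 0.0132). Mutants were above controls in both lines, and the change passed the threshold in *Sox2* mutants only, a call lost without CTRL_2, MUT_1 and MUT_4 (0.38 to 0.45). *Grik5* (GluK5), the highest kainate subunit per kb of transcript but not per kb of coding sequence, was called in neither, at -0.06 (edgeR FDR 0.561) in *Sox2* and -0.05 (edgeR FDR 0.572) in *Nr2f1* mutants.

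Per kb of transcript, *Grik3* made up 37.8, 31.8 and 30.97% in the controls and 16.1, 16.4 and 15.3% in the mutants of the kainate transcripts of the *Sox2* line (exact two-sided permutation p = 0.1, n = 3 and 3), and 40.03, 35.2 and 37.6% in the controls and 37.6, 37.9 and 32.3% in the mutants of the *Nr2f1* line (exact p = 0.7). The *Grik1* share was 10.7% ± 1.27 in the controls and 16.9% ± 0.338 in the mutants of the *Sox2* line, and 10.5% ± 0.187 in the controls and 7.37% ± 1.15 in the mutants of the *Nr2f1* line (SD, n = 3), so that it was higher in every *Sox2* mutant and lower in every *Nr2f1* mutant than in their controls. Of the 2 auxiliary proteins, *Neto2*, which binds kainate receptors and slows their desensitization, measured 131, 124 and 102 CPM in the controls and 75.4, 80.99 and 72.7 CPM in the mutants of the *Sox2* line (log2 fold change -0.64 ± 0.10, edgeR FDR 0.00197). Levels in the *Nr2f1* line were 131, 130.0 and 139 CPM in the controls and 136, 137 and 97.4 CPM in the mutants (log2 fold change -0.11 ± 0.11, edgeR FDR 0.59). The groups were apart in the *Sox2* line, with a call lost without CTRL_2 and MUT_4 (-0.73 to -0.56), and overlapped in the *Nr2f1* line. *Neto1* was called in neither, at -0.04 (edgeR FDR 0.827) and -0.14 (edgeR FDR 0.384).

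The NMDA receptor subunits called in *Sox2* mutants were *Grin3a*, which rose, and *Grin2d*, which fell. In *Nr2f1* mutants edgeR's quasi-likelihood test called 0 of the 7 subunits, and 2 had an unadjusted p below 0.05 (*Grin2a* and *Grin3a*). DESeq2 also called 0, and edgeR's likelihood ratio and exact tests called 1 (*Grin2a*). *Grin3a* (chr4:49661611-49846023, minus strand, GRCm38) encodes GluN3A, a glycine-binding subunit of the young brain that lowers calcium permeability. It measured 126, 128 and 104 CPM in the controls and 268, 261 and 279 CPM in the mutants of the *Sox2* line (log2 fold change 1.18 ± 0.09, edgeR FDR 4.84e-05), or 226% of control. Libraries of the *Nr2f1* line had 117, 116 and 119.8 CPM in the controls and 131, 133 and 156 CPM in the mutants, apart but not called (log2 fold change 0.25 ± 0.07, edgeR FDR 0.0549). Each *Sox2* mutant was far above each control, and the call held without each library (1.10 to 1.23). *Grin2d*, which encodes GluN2D, the slowly deactivating subunit typical of the early diencephalon, measured 145, 145 and 141 CPM in the controls and 110.0, 102 and 117 CPM in the mutants of the *Sox2* line (log2 fold change -0.39 ± 0.07, edgeR FDR 0.00394). For the *Nr2f1* line the levels were 154, 161 and 143 CPM in the controls and 133, 156 and 134 CPM in the mutants (log2 fold change -0.12 ± 0.07, edgeR FDR 0.342). The mutants were below the controls in the first and overlapped them in the second. The *Sox2* call was lost without CTRL_1, CTRL_2, MUT_1 and MUT_3 (-0.44 to -0.34). *Grin1*, which encodes the obligatory GluN1 subunit, was not called, at -0.31 (edgeR FDR 0.0337) in *Sox2* and -0.11 (edgeR FDR 0.225) in *Nr2f1* mutants, although the libraries of both lines were apart.

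Per kb of transcript, *Grin3a* made up 16.3, 16.9 and 15.7% in the controls and 34.9, 34.99 and 37.2% in the mutants of the NMDA subunit transcripts of the *Sox2* line. The same share was 15.1, 14.5 and 15.2% in the controls and 17.3, 16.9 and 21.01% in the mutants of the *Nr2f1* line (exact two-sided permutation p = 0.1 in each, n = 3 and 3). The *Grin1* share was 52.8% ± 1.23 in the controls and 41.1% ± 2.39 in the mutants of the *Sox2* line (SD, n = 3), and that of *Grin2d* was 27.2% ± 1.91 in the controls and 19.9% ± 1.38 in the mutants. Shares of a class are parts of a whole, so a larger *Grin3a* share by itself lowers the others. Per kb of coding sequence *Grin3a* stood above *Grin1* in the *Sox2* mutants, at 45.4% against 33.4%, so their order there depends on the length used. Within the 4 GluN2 subunits *Grin2d* held the most per kb, with overlapping groups: 88.7% ± 1.63 in the controls and 86.7% ± 2.08 in the mutants of the *Sox2* line, and 86.2% ± 2.36 in the controls and 85.1% ± 2.21 in the mutants of the *Nr2f1* line.

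*Grin2a* and *Grin2b* form a pair whose balance is known to move from GluN2B to GluN2A as synapses mature. *Grin2a* was barely expressed, at 1.13, 1.11 and 0.543 CPM in the controls and 1.36, 1.304 and 1.48 CPM in the mutants of the *Sox2* line and 0.999, 0.978 and 1.41 CPM in the controls and 2.33, 1.97 and 2.34 CPM in the mutants of the *Nr2f1* line. All mutants were above all controls in both lines and neither change was called (0.57 (edgeR FDR 0.214) and 0.97 (edgeR FDR 0.0324)). *Grin2b* measured 55.2, 45.7 and 36.1 CPM in the controls and 34.8, 44.6 and 33.4 CPM in the mutants of the *Sox2* line and 62.3, 52.3 and 70.6 CPM in the controls and 68.6, 59.2 and 50.1 CPM in the mutants of the *Nr2f1* line, overlapping in both (-0.28 (edgeR FDR 0.228) and -0.06 (edgeR FDR 0.818)). Per kb of transcript, the *Grin2a* share of *Grin2a* plus *Grin2b* was 6.85, 8.04 and 5.12% in the controls and 12.3, 9.498 and 13.7% in the mutants of the *Sox2* line. The same share was 5.44, 6.29 and 6.701% in the controls and 10.9, 10.7 and 14.4% in the mutants of the *Nr2f1* line (exact two-sided permutation p = 0.1 in each, n = 3 and 3). The *Grin2a* model holds no untranslated sequence and the *Grin2b* model is long, and per kb of coding sequence the shares were 1.98% ± 0.456 in the controls and 3.66% ± 0.723 in the mutants of the *Sox2* line and 1.81% ± 0.198 in the controls and 3.71% ± 0.7095 in the mutants of the *Nr2f1* line. The pallial and hippocampal markers given beside *Cacng3* were higher in MUT_1 and MUT_4, and their part in the *Grin2a* value was not tested. *Grin2c* and *Grin3b* were called in neither mutant, at log2 fold changes of -0.13 to 0.43.

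*Grid1*, the delta receptor, fell in both mutants. It encodes GluD1, a synaptic organizer that binds cerebellins in place of opening to glutamate, at chr14:34820003-35583387, plus strand (GRCm38). It measured 101, 95.3 and 77.5 CPM in the controls and 47.3, 53.4 and 47.2 CPM in the mutants of the *Sox2* line (log2 fold change -0.89 ± 0.10, edgeR FDR 0.000468). Libraries of the *Nr2f1* line had 97.7, 98.1 and 107 CPM in the controls and 54.8, 63.9 and 54.3 CPM in the mutants (log2 fold change -0.81 ± 0.07, edgeR FDR 0.000348). Every mutant lay below every control, at 54.1% and 57.2% of control. Both calls held without each library, at -0.98 to -0.81 and -0.89 to -0.76. The fall in the 2 mutants differed by -0.07 ± 0.13, edgeR FDR 0.866.

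Among the metabotropic receptors tested, 1 of 6 was called in each mutant, and both genes encode presynaptic receptors of group III, which lower transmitter release. *Grm7* measured 65.03, 76.6 and 54.9 CPM in the controls and 37.6, 39.8 and 39.5 CPM in the mutants of the *Sox2* line (log2 fold change -0.75 ± 0.11, edgeR FDR 0.00182). Corresponding *Nr2f1* line levels were 73.9, 57.9 and 70.97 CPM in the controls and 49.8, 58.99 and 44.9 CPM in the mutants (log2 fold change -0.40 ± 0.11, edgeR FDR 0.0648). The groups were apart in the *Sox2* line, where the call was lost without MUT_4 only (-0.85 to -0.62), and overlapped in the *Nr2f1* line. *Grm4* measured 80.6, 69.3 and 71.1 CPM in the controls and 84.1, 57.6 and 75.4 CPM in the mutants of the *Sox2* line, overlapping (log2 fold change -0.03 ± 0.13, edgeR FDR 0.907). The *Nr2f1* line gave 74.1, 59.8 and 63.95 CPM in the controls and 92.2, 107 and 88.1 CPM in the mutants, apart (log2 fold change 0.54 ± 0.09, edgeR FDR 0.00868). Its *Nr2f1* call was lost without CTRL_B, CTRL_D, CTRL_E, MUT_A and MUT_C (0.45 to 0.63). Neither gene's change was shown to differ between the mutants (-0.34 ± 0.17, edgeR FDR 0.367 for *Grm7* and -0.56 ± 0.17, edgeR FDR 0.108 for *Grm4*). *Grm2*, *Grm3*, *Grm5* and *Grm8* were called in neither, and the furthest from 0 was *Grm5*, a postsynaptic receptor of group I, at -0.47 (edgeR FDR 0.0207) in *Sox2* mutants.

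The 2 mutants were then compared directly. The change in *Sox2* mutants minus the change in *Nr2f1* mutants was -1.15 ± 0.15, edgeR FDR 0.000553 for *Grik3*, -1.12 ± 0.15, edgeR FDR 0.000779 for *Cacng5* and -1.01 ± 0.18, edgeR FDR 0.00534 for *Frrs1l*. Relative to its own controls, each was thus lower in *Sox2* mutants than in *Nr2f1* mutants. No fall was called for any of them in *Nr2f1* mutants, where *Grik3* and *Cacng5* overlapped their controls. *Frrs1l* lay apart from its controls there, just short of the threshold (edgeR FDR 0.0117), and the study lists it as lower in both mutants. It was -0.59 ± 0.10, edgeR FDR 0.00340 for *Gria2* and -0.91 ± 0.17, edgeR FDR 0.00891 for *Gria1*. *Grin3a* rose further in *Sox2* mutants (0.93 ± 0.11, edgeR FDR 0.000349). *Grik1* differed by 1.04 ± 0.14, edgeR FDR 0.000960, with every *Sox2* mutant above and every *Nr2f1* mutant below its controls. The differences of *Grik1*, *Grik3*, *Grin3a* and *Cacng5* passed the threshold in all 12 fits that left out 1 library. That of *Gria1* was lost without any 1 of CTRL_1, CTRL_2, MUT_3, MUT_4, CTRL_B, CTRL_D, CTRL_E, MUT_A, MUT_B and MUT_C (-1.07 to -0.82), that of *Gria2* without MUT_1, MUT_4, CTRL_D, CTRL_E, MUT_A and MUT_B (-0.65 to -0.54) and that of *Frrs1l* without CTRL_2, MUT_1, MUT_3, MUT_4, CTRL_D, CTRL_E, MUT_A and MUT_B (-1.13 to -0.83). For *Shisa9* the difference was -0.66 ± 0.15, edgeR FDR 0.0252 and for *Cacng3* it was 0.58 ± 0.25, edgeR FDR 0.28, so for these, called in *Sox2* mutants alone, a difference between the mutants was not shown. The same holds for the others called in *Sox2* mutants alone without a called difference. These were *Cacng2* (edgeR FDR 0.0537), *Shisa6* (0.0773), *Neto2* (0.113), *Grin2d* (0.188), *Grm7* (0.367) and *Grik2* (0.37).

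**Figure D4:**
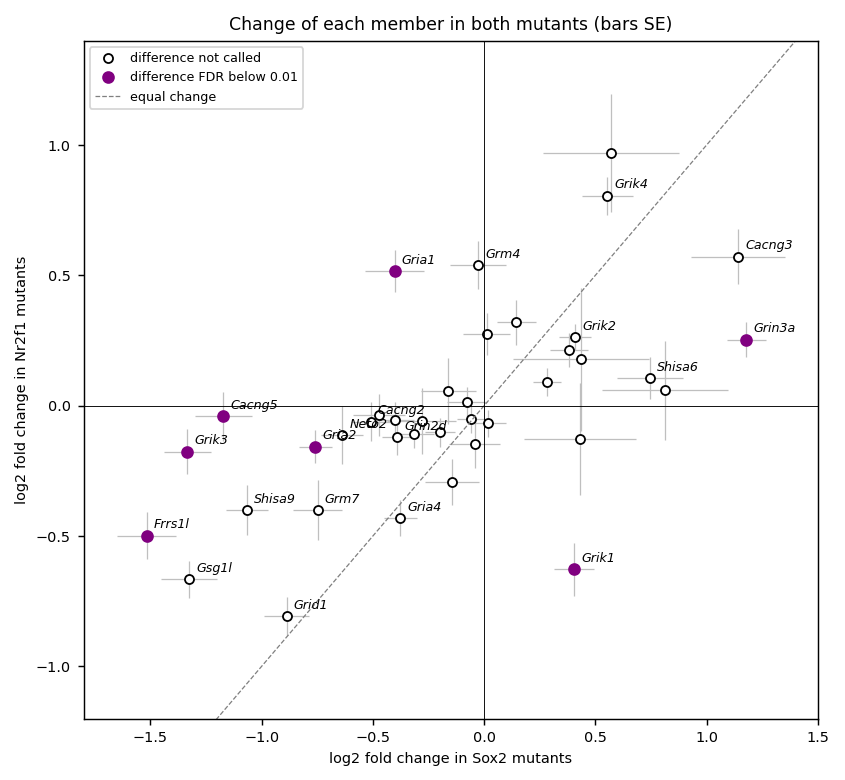
Log2 fold change of each tested member in *Sox2* mutants (horizontal axis) and in *Nr2f1* mutants (vertical axis), with standard errors as bars; the dashed line marks an equal change in both, and filled circles are the 7 members whose difference had an FDR below 0.01. *Grik1* lies right of and below 0, *Gria1* left of and above 0, and *Grid1* lies close to the dashed line.

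The genes that work beside these receptors were taken from 3 further lists of 57 genes in all, every one of them tested. In *Sox2* mutants 12 of 57 were called, 8 lower and 4 higher, with a median log2 fold change of -0.051, and in *Nr2f1* mutants 6 were called, 2 lower and 4 higher, with a median of -0.056. Beside these counts and those of the 3 lists below, 8.08% of all genes were called in *Sox2* and 2.54% in *Nr2f1* mutants. Of 13 genes of glutamate transport and metabolism, 3 were called in *Sox2* mutants and 0 in *Nr2f1* mutants, where *Slc1a6* came nearest the threshold (0.45 (edgeR FDR 0.0102)). *Slc17a6*, the vesicular transporter VGLUT2 of thalamic neurons, measured 271, 223 and 199 CPM in the controls and 122, 119 and 116 CPM in the mutants of the *Sox2* line (log2 fold change -0.96 ± 0.10, edgeR FDR 0.000336), and *Slc1a1*, the neuronal uptake transporter, changed by -0.80 (edgeR FDR 0.000531). The *Slc17a6* change in *Nr2f1* mutants was -0.04 (edgeR FDR 0.836), and its difference between the mutants was called (-0.91 ± 0.16, edgeR FDR 0.00467). *Slc17a7*, the vesicular transporter VGLUT1, which is typical of cortical neurons, measured 9.23, 7.43 and 6.07 CPM in the controls and 25.1, 12.7 and 16.1 CPM in the mutants of the *Sox2* line (log2 fold change 1.24 ± 0.24, edgeR FDR 0.00726). Among the mutants it was highest in MUT_1 and lowest in MUT_3, as were the summed pallial and hippocampal markers given beside *Cacng3*, and their part in this value was not tested. Of 26 postsynaptic scaffolds and kinases, 6 were called in *Sox2* mutants, 5 of them lower, with *Homer2* (-0.79 (edgeR FDR 0.000792)), *Shank2* (-0.73 (edgeR FDR 0.000792)), *Dlgap3* (-0.44 (edgeR FDR 0.00167)) and *Dlgap1* among them, while *Dlg1* rose. In *Nr2f1* mutants 3 were called: *Homer2*, a scaffold that ties group I metabotropic receptors to calcium stores, fell (-0.89 (edgeR FDR 0.000189)), and *Dlgap2* (1.16 (edgeR FDR 0.00441)) and *Camk2a* (0.39 (edgeR FDR 0.00374)) rose.

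Of 18 other proteins found in AMPA receptor complexes, 3 were called in each mutant. *Syndig1*, a transmembrane protein of excitatory synapses, rose in both: it measured 5.49, 4.899 and 3.83 CPM in the controls and 9.94, 8.38 and 9.18 CPM in the mutants of the *Sox2* line (log2 fold change 0.95 ± 0.15, edgeR FDR 0.00298). The *Nr2f1* line gave 3.64, 4.58 and 3.89 CPM in the controls and 13.1, 10.4 and 13.3 CPM in the mutants (log2 fold change 1.60 ± 0.14, edgeR FDR 0.000291). In *Sox2* mutants *Vwc2l* rose (1.69 (edgeR FDR 0.000122)) and *Olfm1* fell (-0.45 (edgeR FDR 0.00501)). In *Nr2f1* mutants *Nptx1*, a pentraxin that gathers AMPA receptors, rose (0.76 (edgeR FDR 0.00125)) and *Prrt2* fell (-0.40 (edgeR FDR 0.00257)). *Homer2* and *Syndig1* were the 2 genes of these lists called in both mutants.

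Of the 20 called members, the exons of 8 overlap exons of another annotated gene. For *Gria2*, *Gria4*, *Grik4* and *Grid1* the other gene lies on the same strand, and for *Grin2d*, *Grm7*, *Cacng2* and *Neto2* on the opposite strand. Whether reads were counted by strand is not given in the sources used here. It is therefore not known whether reads of the second set were kept apart from those of their antisense partners. For the first set, counting by strand could not separate the overlapping reads. The overlaps are those of GENCODE M21 models, whereas the authors mapped to RefSeq transcripts.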

How the data were processed

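RNA of the dLGN was sequenced from 12 libraries, 3 in each of 4 groups. Per the study's methods, the authors mapped reads with STAR to the mouse RefSeq transcriptome and deposited expected counts per gene from RSEM; tool versions are not given in the sources used here, and the labels name build mm10. The counts (7.77% of values not whole) were rounded, genes under 10 counts in the smaller group or 15 in total were removed by filterByExpr, and TMM factors and the quasi-likelihood F-test came from edgeR 4.0.16 in R 4.3.3, with Benjamini-Hochberg FDR below 0.01 over all genes tested. The difference between mutants was the interaction of line and genotype over 12 libraries (fits tested on simulated data). Columns were assigned to a group by their names and table, not to single samples. Each library pools 3 animals, so the p-values measure the spread between pools. Lengths came from GENCODE M21 transcripts with a RefSeq match (GRCm38). DESeq2 1.42.0 and limma 3.58.1 served alternatives and helper steps. The 40 members and the gene lists were chosen with earlier results of these data known. Every member called in either line or in the difference is given by library; others by class, naming those highest per length or furthest from 0; genes of the pathway lists are named where called, apart from an item that is not reported here. The *Frrs1l* and *Grik3* promoters and members named beyond this rule were chosen after their values were seen.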

Additional observations from a re-analysis of the deposited data

Results flagged for a closer look

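The change in *Sox2* mutants and the change in *Nr2f1* mutants differed, by the interaction test over all 12 libraries (edgeR FDR below 0.01), for 7 members. As *Sox2* change minus *Nr2f1* change on the log2 scale, with the change in each mutant, the difference was -0.91 ± 0.17, edgeR FDR 0.00891 for *Gria1* (-0.40 and 0.52). It was -0.59 ± 0.10, edgeR FDR 0.00340 for *Gria2* (-0.76 and -0.16). It was 1.04 ± 0.14, edgeR FDR 0.000960 for *Grik1* (0.40 and -0.63), the only one of these 7 with the libraries of both lines apart in opposite directions. The differences were -1.15 ± 0.15, edgeR FDR 0.000553 for *Grik3* (-1.33 and -0.18) and 0.93 ± 0.11, edgeR FDR 0.000349 for *Grin3a* (1.18 and 0.25). For *Cacng5* the value was -1.12 ± 0.15, edgeR FDR 0.000779 (-1.17 and -0.04), and for *Frrs1l* it was -1.01 ± 0.18, edgeR FDR 0.00534 (-1.52 and -0.50).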

How the results depend on the processing

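No member called in the reported fits changed sign under any alternative. In *Sox2* mutants the 17 calls became 11 with the male-specific genes as a covariate (without *Gria4*, *Grik2*, *Grik4*, *Grin2d*, *Cacng3* and *Shisa6*) and 9 to 19 when 1 library was left out (10 without CTRL_2, 11 without MUT_1, 9 without MUT_4). In *Nr2f1* mutants the 7 calls became 12 with DESeq2, with edgeR's likelihood ratio test, with the exact test and at FDR below 0.05, 2 with the male-specific genes as a covariate (*Grik4* and *Grid1*), and 3 to 9 when 1 library was left out (3 without CTRL_B or CTRL_D, 4 without CTRL_E or MUT_A). The 7 differences became 4 with that covariate (without *Gria1*, *Gria2* and *Frrs1l*) and 4 to 8 when 1 library was left out (4 without MUT_4 of the *Sox2* line or CTRL_D, CTRL_E, MUT_A or MUT_B of the *Nr2f1* line). Leaving out a library also takes a replicate from the test. Over all genes, the 1261, 396 and 231 calls ranged over the alternatives from 494 to 3095, 84 to 1154 and 117 to 538. These ranges are not split by alternative. A gain or loss of member calls under a single alternative therefore cannot be set against that of all genes. Called under all alternatives other than the FDR of 0.05 were *Gria2*, *Grik3*, *Grin3a*, *Grid1*, *Cacng5*, *Gsg1l*, *Frrs1l* and *Shisa9* in *Sox2* mutants, *Grik4* and *Grid1* in *Nr2f1* mutants, and the differences of *Grik1*, *Grik3*, *Grin3a* and *Cacng5*. The numbers in the *Sox2* columns share 1 and 3 between mutants and controls (correlation of deviations 0.177 and 0.157, against -0.282 to 0.153 for other pairs). No source used here says that they mark a shared litter or day. With them as a replicate block, 18 members were called, 15 of them among the 17. CTRL_2 and MUT_4 each stand alone in a block there, so the change in that fit rests on the 2 pairs with a shared number. No paired analysis was possible for the *Nr2f1* line or the difference because the *Nr2f1* columns share fewer than 2 numbers. Division by coding length, chosen after seeing the data, left both shares in the same direction, and the *Grin2a* shares, at 5.19 and 5.84 percentage points above control per kb of transcript, were then 1.69 and 1.89 points above. It also turned the gap between *Grik5* and *Grik3* in the controls from 18.6 to -21.3 CPM per kb. The size of that gap depends on the short *Grik5* coding length of 1666.5 bases, the median of 2 models.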
